A study of Mus musculus with 9 samples.

Results

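Per1, Per2, Per3, Cry1, Cry2, Ciart, Bhlhe40 and Bhlhe41 encode repressors of the circadian clock. They were read on 9 arrays of mouse tibialis anterior, the fast muscle at the front of the shin. The 8 genes were chosen by name from the array annotation, among 19505 named genes, with earlier results of these arrays known. Their levels and tests are therefore given as a description and are not independent support for any pattern. Each gene had 1 probe set, the group of probes whose signals are summarised as 1 value.

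The study concerns the part of MCUb in oxidative phosphorylation. MCU forms the pore of the uniporter, the channel that carries calcium into the mitochondrial matrix, and MCUb is a paralogue of MCU in the same complex. There were 3 genotypes with 3 arrays each: control (MCU+/+/MCUb+/+), MCU knockout (MCU-/-/MCUb+/+) and MCUb knockout (MCU+/+/MCUb-/-), all from C57/BL6 mice 2 months old. All groups were whole, flash-frozen muscle without further treatment in the labels. Whether a knockout was confined to muscle, and the litter, sex and hour of harvest, are not stated in the sources used here. Nothing in the labels ties the 3 samples of a genotype to 3 different mice. The p-values thus reflect only how far these samples varied, part of which may be technical.

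The core clock is a feedback loop. CLOCK and BMAL1, the product of Arntl, bind E-box sequences and switch on the Per and Cry genes. PER and CRY proteins then return to the nucleus and shut CLOCK and BMAL1 down. CIART, also called CHRONO, represses the same pair through BMAL1, and BHLHE40 and BHLHE41, also called DEC1 and DEC2, compete for E-boxes. Skeletal muscle carries its own clock, and transcripts of these genes rise and fall over the day, so the level in a muscle depends on the hour at which it was taken.

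Promoter sequence was available for 6 of the 8 genes, from RefSeq (GRCm38.p6). The 250 bases before each annotated start were searched on both strands for 5 clock or signalling motifs, and no matches overlapped. The stretches are shown because they carry the E-boxes (CACGTG), E-prime boxes (CACGTT, printed as AACGTG where it lies on the other strand) and D-boxes (TTATGTAA or TTATGCAA) through which the loop and its output factors act. Capitals mark the matches, each sequence runs 5′ to 3′ on the strand of its gene, and up to 20 bases flank the outer matches.
Ciart, chr3:95882247-95882364, minus strand: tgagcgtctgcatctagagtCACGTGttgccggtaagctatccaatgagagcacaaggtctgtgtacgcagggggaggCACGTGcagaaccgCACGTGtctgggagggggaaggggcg
Per1, chr11:69098763-69098948, plus strand: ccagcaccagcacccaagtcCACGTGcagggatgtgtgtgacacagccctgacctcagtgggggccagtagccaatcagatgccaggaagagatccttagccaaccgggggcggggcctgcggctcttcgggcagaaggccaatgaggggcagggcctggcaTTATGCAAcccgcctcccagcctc
Cry1, chr10:85185089-85185153, minus strand: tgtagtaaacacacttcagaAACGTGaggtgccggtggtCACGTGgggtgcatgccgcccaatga
Cry2, chr2:92434210-92434255, minus strand: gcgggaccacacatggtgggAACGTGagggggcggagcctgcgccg
Bhlhe41, chr6:145865548-145865593, minus strand: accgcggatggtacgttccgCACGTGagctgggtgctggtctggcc
Per3, chr4:151044796-151044890, minus strand: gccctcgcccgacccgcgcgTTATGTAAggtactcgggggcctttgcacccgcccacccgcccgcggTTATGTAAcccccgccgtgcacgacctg

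Ciart carried 3 E-boxes, whose first bases lay 116, 58 and 44 bases before the start. Of 32851 promoter windows of the same length, 20 (0.0609%) held 3 or more. At least 1 E-box was present in 4 of the 7 windows of these genes (Per1 has 2 annotated starts) and in 6.02% of all windows. The E-prime box was found in Cry1 and Cry2, and in 3.85% of all windows. The D-box was found in Per1 and Per3, and in 1.501% of all windows. Per3 carried it 2 times, as 11 windows (0.0335%) did. The ROR element core (TAGGTCA or TGGGTCA), bound by ROR and REV-ERB receptors, was in 5.38% of all windows and in 0 of the 7. The cyclic AMP response element (TGACGTCA) was in 1.55% of all windows and in 0 of the 7. A match describes the letters only and is neither a measured site nor a cause of the levels below.

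**Figure D1:**
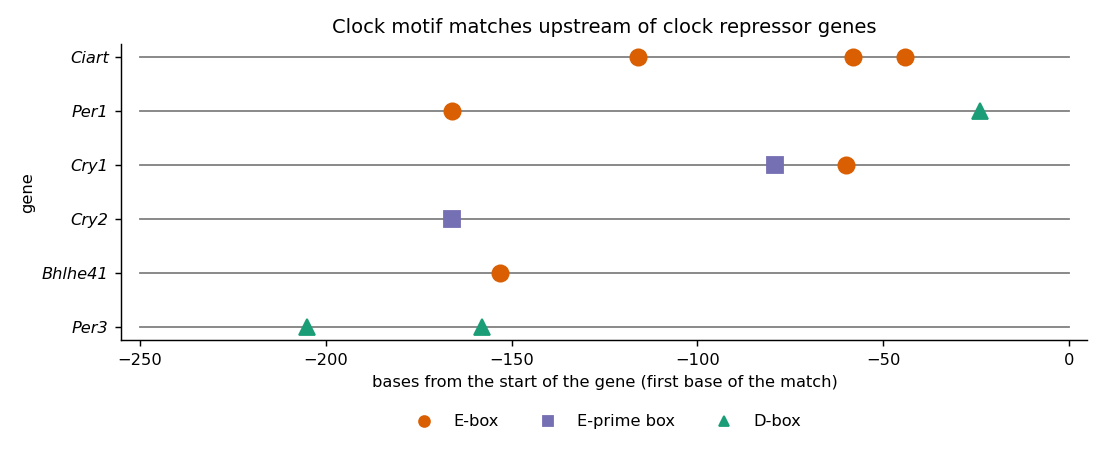
Position of each motif match in bases from the annotated gene start (x axis, start at 0) for the 6 genes with a promoter window (y axis); circles are E-boxes, squares E-prime boxes and triangles D-boxes. Ciart has 3 E-boxes within 116 bases of its start, and the D-boxes of Per3 lie 205 and 158 bases upstream.

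Levels below are log2 signals, and a log2 difference of 1 is a doubling. Of the 8 clock repressors, 6 had a lower mean in the MCU knockout than in control (52.4% of all probe sets did), and 7 had a higher mean in the MCUb knockout than in control (46.0% did). Between the knockouts, all 8 mean levels were higher in the MCUb knockout, against 47.7% of all 22206 probe sets. Ciart, Per2 and Cry2 passed an adjusted p of 0.05 in that comparison (limma with Benjamini-Hochberg adjustment over all probe sets). Against control, none of the 8 passed in either knockout. The median log2 change of the 8 was -0.57 for the MCU knockout against control, where the median of all probe sets was -0.018. It was 0.65 for the MCUb knockout against control (all probe sets -0.029) and 0.85 between the knockouts (all probe sets -0.014). The tissue is a mixture of cells, so fewer cells of a type and less RNA per cell cannot be told apart.

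**Figure D2:**
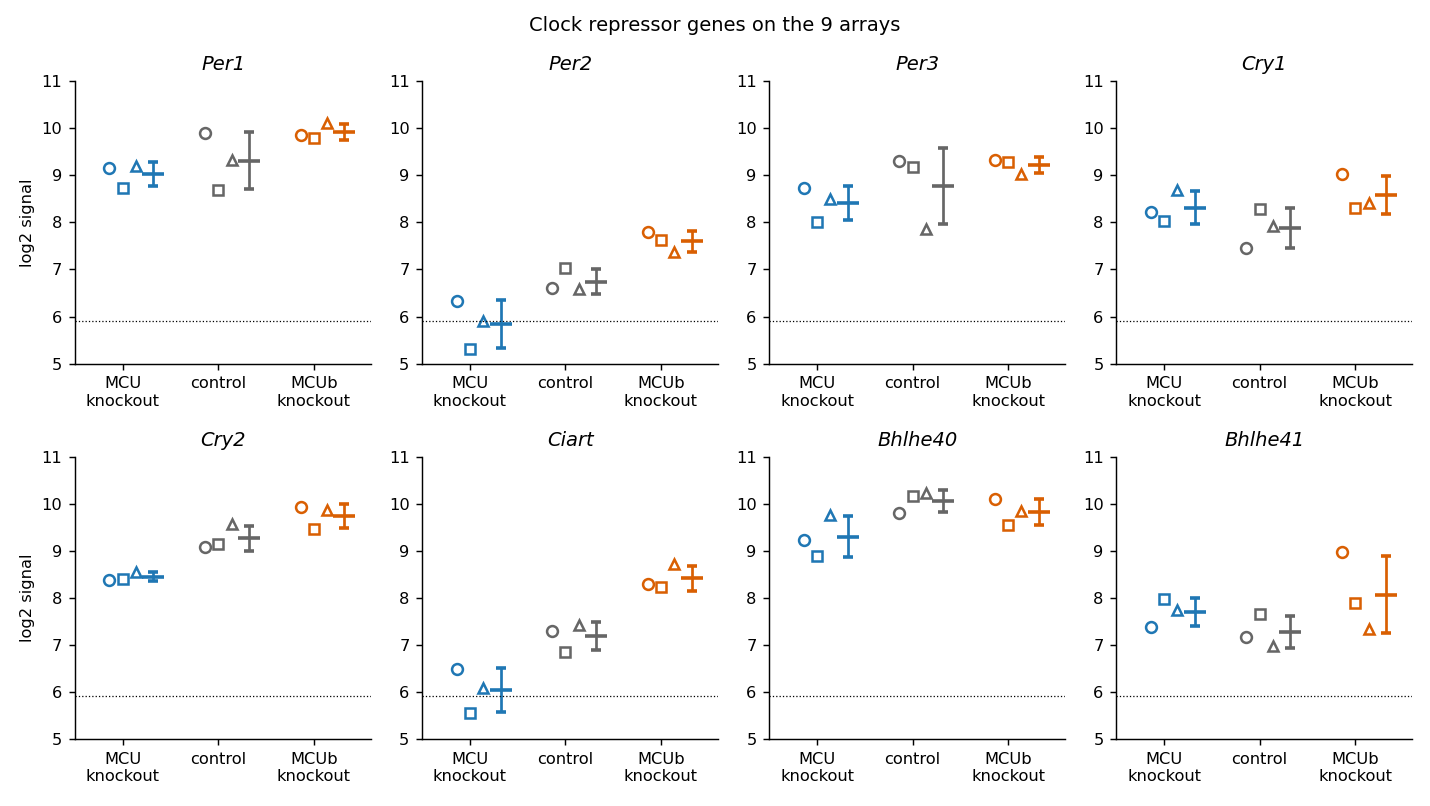
Log2 signal (y axis) of each clock repressor on every array by genotype (x axis), with circle, square and triangle for arrays 1, 2 and 3 and a bar for the mean ± SD of 3 arrays; the dotted line is the highest background limit, 5.92. Ciart and Per2 separate all 3 genotypes, and their MCU knockout array 2 lies under the dotted line. Per2 on MCU knockout array 3 (5.904) also lies under it, though just over that array's own limit of 5.8995.

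Ciart showed the widest separation. Control muscle had log2 signals of 7.30, 6.87 and 7.42, the MCU knockout 6.50, 5.57 and 6.09, and the MCUb knockout 8.29, 8.25 and 8.71. Every MCU knockout array lay below every control array, and every control array lay below every MCUb knockout array. The value of 5.57, on MCU knockout array 2, was not above background, so the mean of 6.05 ± 0.47 (SD, n = 3) in that group rests on 2 measured arrays and 1 bound. Ciart was 5.15-fold higher in the MCUb than in the MCU knockout, a log2 difference of 2.37 (SE 0.26, limma adjusted p = 0.00370). Its rank by p was 11 among the 22206 probe sets. Against control the log2 change was -1.14 (SE 0.26, limma adjusted p = 0.204) in the MCU knockout and 1.22 (SE 0.26, limma adjusted p = 0.385) in the MCUb knockout, so neither passed on its own.

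The Per genes encode the PERIOD proteins, whose slow build-up sets the delay of the loop. Per2 had log2 signals of 6.61, 7.04 and 6.58 in control, 6.33, 5.31 and 5.90 in the MCU knockout, and 7.80, 7.63 and 7.37 in the MCUb knockout. Its 3 genotypes did not overlap either, in the same order as for Ciart, and MCU knockout array 2 was again the one array not above background. The difference between the knockouts was 1.75 (SE 0.26, limma adjusted p = 0.0265), a 3.37-fold higher level in the MCUb knockout. The MCU knockout mean of 5.85 ± 0.52 (SD, n = 3) behind it rests on 2 measured arrays, 1 of them (5.904) just over its limit of 5.8995, and on 1 bound. Against control, Per2 stood at -0.90 (SE 0.26, limma adjusted p = 0.335) in the MCU knockout and 0.85 (SE 0.26, limma adjusted p = 0.534) in the MCUb knockout.

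Per1, which answers fast to glucocorticoid and cyclic AMP signals in many tissues, followed the same order of means with less separation. Control arrays spread from 8.69 to 9.90 (9.90, 8.69 and 9.33), the MCU knockout had 9.15, 8.73 and 9.19, and the MCUb knockout had 9.85, 9.78 and 10.11. All MCUb knockout arrays were above all MCU knockout arrays, while control overlapped both. The log2 difference between the knockouts was 0.89 (95% interval 0.27 to 1.51, limma adjusted p = 0.582). Per3, the PERIOD protein least needed for rhythm itself, gave 9.30, 9.17 and 7.85 in control, 8.73, 8.01 and 8.49 in the MCU knockout and 9.33, 9.29 and 9.02 in the MCUb knockout. Control array 3 was the lowest of all 9 arrays for Per3, and control overlapped both knockouts. Between the knockouts Per3 differed by 0.80 (95% interval 0.037 to 1.57, limma adjusted p = 0.849), with no overlap between the groups.

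The Cry genes encode the cryptochromes, the strongest repressors of CLOCK and BMAL1. Cry2 had log2 signals of 9.09, 9.15 and 9.58 in control, 8.39, 8.40 and 8.56 in the MCU knockout, and 9.93, 9.46 and 9.86 in the MCUb knockout. Its MCU knockout arrays were tightly grouped (SD 0.10) and lay below every control array, while control overlapped the MCUb knockout by its array 3. Cry2 was 2.46-fold higher in the MCUb than in the MCU knockout, a log2 difference of 1.30 (SE 0.20, limma adjusted p = 0.0336). Its change against control was -0.82 (SE 0.20, limma adjusted p = 0.251) in the MCU knockout and 0.48 (SE 0.20, limma adjusted p = 0.588) in the MCUb knockout.

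Cry1 did not share this order. Control had 7.45, 8.29 and 7.93, the MCU knockout 8.22, 8.02 and 8.69, and the MCUb knockout 9.03, 8.30 and 8.41. The MCU knockout mean lay between the other two, and the knockouts overlapped. Their log2 difference was 0.27 (95% interval -0.34 to 0.89, limma adjusted p = 0.9998). Every MCUb knockout array exceeded every control array, the closest pair being 8.30 and 8.29, with a log2 change of 0.69 (SE 0.28, limma adjusted p = 0.577).

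Bhlhe40 and Bhlhe41 encode the E-box repressors DEC1 and DEC2, and the 2 genes went different ways. Bhlhe40 had 9.80, 10.17 and 10.23 in control, 9.23, 8.90 and 9.76 in the MCU knockout and 10.09, 9.55 and 9.85 in the MCUb knockout. It was the only one of the 8 whose highest mean was in control, and its MCU knockout arrays lay below all control arrays, with a log2 change of -0.77 (SE 0.25, limma adjusted p = 0.366). Bhlhe41 had 7.18, 7.66 and 6.99 in control, 7.38, 7.98 and 7.75 in the MCU knockout and 8.97, 7.89 and 7.35 in the MCUb knockout. MCUb knockout array 1 was the highest of all 9 arrays, and the other arrays of its group lay within the range of the MCU knockout or just under it. The difference between the knockouts, 0.37 (95% interval -0.43 to 1.16), turned to -0.082 without that array.

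**Figure D3:**
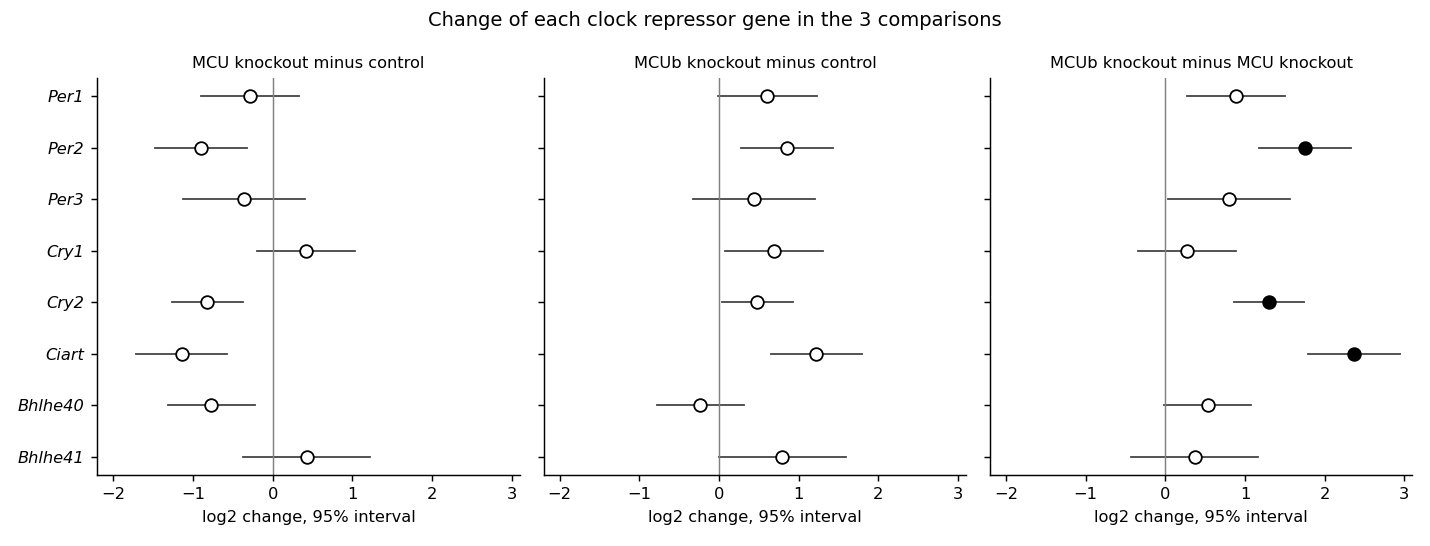
Log2 change (x axis) with its 95% interval for each clock repressor (y axis) in the 3 comparisons, filled where the limma adjusted p is under 0.05. Only Ciart (2.37), Per2 (1.75) and Cry2 (1.30) in the comparison of the knockouts are filled.

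Read as counts, the comparison of the MCU knockout with control had 0 of the 8 past the adjusted threshold, where 31 probe sets (0.140%) passed. At an unadjusted p under 0.05, Per2, Cry2, Ciart and Bhlhe40 were lower, against 5.35% of all probe sets, and the same 4 had groups without overlap, against 7.33%. None of the 8 was higher at that p, against 4.76%. The MCUb knockout against control had 0 of the 8 past the adjusted threshold, where 5 probe sets (0.0225%) passed. At an unadjusted p under 0.05, Per2, Cry1, Cry2 and Ciart were higher, against 3.90% of all probe sets. Per2, Cry1 and Ciart had groups without overlap, against 5.73%. None was lower at that p, against 4.21%. Between the knockouts 3 of the 8 passed, where 35 probe sets (0.158%) did. At an unadjusted p under 0.05, Per1, Per2, Per3, Cry2 and Ciart were higher in the MCUb knockout, against 3.02% of all probe sets, and the same 5 had groups without overlap, against 6.19%. None was lower at that p, against 2.68%. A full separation of the 3 genotypes, with the MCU knockout lowest and the MCUb knockout highest, was found for 17 probe sets (0.0766%), Ciart and Per2 among them. Nothing is read from these shares, since the genes were selected on these arrays, and the comparisons share samples.

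By order of mean levels, Per1, Per2, Per3, Cry2 and Ciart ran from the MCU knockout through control to the MCUb knockout. Of these orders, that of Per1 rested on control array 1 (the MCU knockout against control was 0.014 without it) and that of Per3 on control array 3 (the MCUb knockout against control was -0.024 without it). Of the steps between neighbours in these orders, both were free of overlap for Ciart and Per2, and 1 for Cry2, the step from the MCU knockout to control. Neighbouring groups overlapped at each step for the other 5 genes. Across arrays, MCUb knockout array 1 was the highest for 5 of the 8 genes and among the top 3 for all 8. MCU knockout array 2 was the lowest for 3 and among the bottom 3 for 7.

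The arrays themselves checked as follows. Mcu, the gene deleted in 1 group, was at 6.94 ± 0.13 (SD, n = 3) in the MCU knockout and 10.60 ± 0.31 in control (limma log2 change -3.65, adjusted p = 3.47e-05), while Mcub was not analysed here. All 9 muscle fibre markers were above background, with a mean of 17.89 to 18.35 on each array, whereas satellite cell, Schwann cell and brown fat markers were not above background on any. Between 45.32% and 45.95% of probe sets were above background per array. Control array 3 stood apart from the other 8 on the first principal component (-70.82 against -20.30 to 21.89).

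Several measures moved with the clock repressors or differed between arrays of a group, and none was tested as a cause. Only the level of Uty and Kdm5d was also used in the other settings given below. Macrophage and neutrophil markers, 5 of 6 measured, had their highest mean on MCUb knockout array 1 (7.21) and control array 3 (6.95), against 5.61 to 6.27 elsewhere. On these arrays the neutrophil genes S100a8 (8.11 and 7.94) and S100a9 (9.39 and 8.55) were high. The macrophage genes were not: Csf1r was at 6.29 and 6.23, against 6.46 to 8.01 on the other 7 arrays, and Adgre1, at 5.73 and 4.69, was not above background on either. Fibroblast markers, 4 of 5 measured, were highest on MCU knockout arrays 2 and 3 (12.33 and 11.97), against 10.71 to 11.66. The Y-linked genes Uty and Kdm5d had a mean of 7.56 and 7.24 on MCU knockout arrays 2 and 3 and 7.80 on MCUb knockout array 1, and 3.01 to 3.89 on the other 6. All control arrays were of low level. Against them, MCU knockout array 1, of low level too, stood at -0.70 for Ciart, -0.41 for Per2 and -0.88 for Cry2. With all MCU knockout arrays the changes were -1.14, -0.90 and -0.82. Within the arrays of low level, 2 MCUb knockout arrays exceeded 1 MCU knockout array by 1.98 for Ciart, 1.17 for Per2 and 1.27 for Cry2. Within those of high level, 1 MCUb knockout array exceeded 2 MCU knockout arrays by 2.46, 2.19 and 1.45. Without MCUb knockout array 1 the differences were 2.43 for Ciart, 1.65 for Per2 and 1.21 for Cry2, and without MCU knockout array 2 they were 2.12, 1.48 and 1.28.

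Ciart stayed past the threshold in 18 of the 19 other settings tried and Per2 in 9. Cry2 did so in 6, and among the losses of both Per2 and Cry2 was each of the 3 MCUb knockout arrays left out in turn. On the 6 arrays with low Uty and Kdm5d, where 1 MCU knockout array is assumed to vary like the others, none of the 3 passed.

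**Figure D4:**
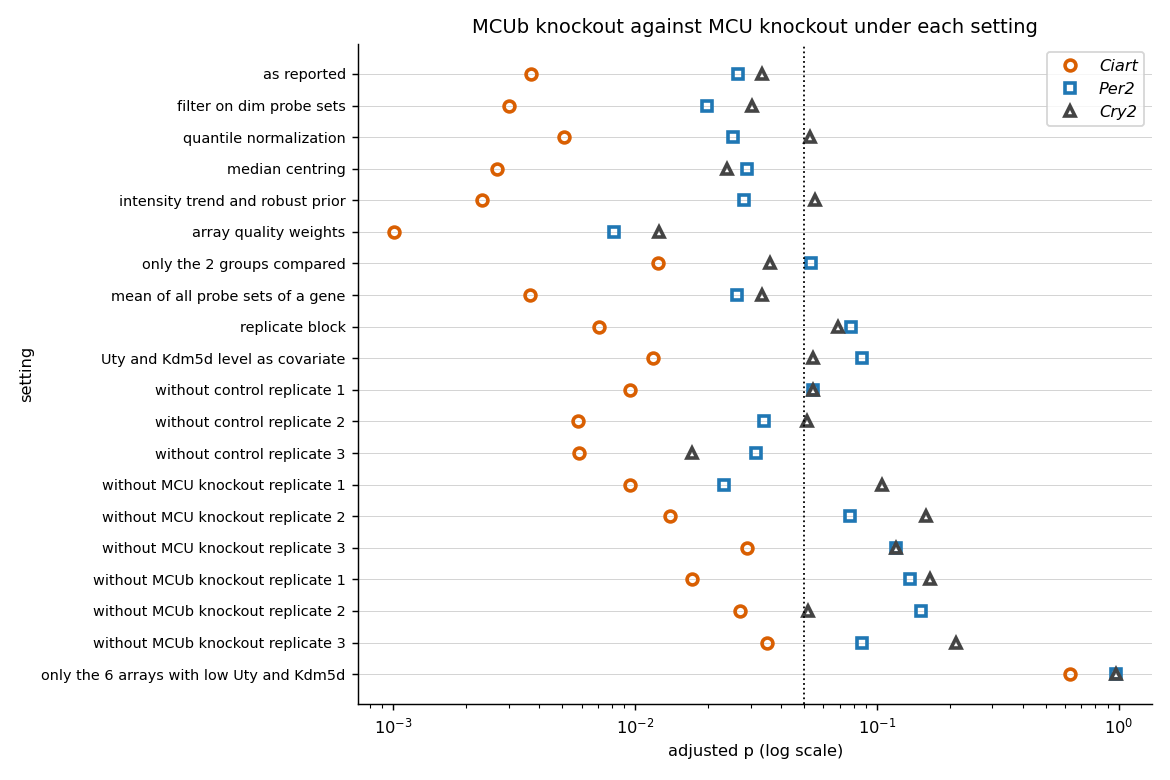
Adjusted p (x axis, log scale) of Ciart (circles), Per2 (squares) and Cry2 (triangles) for the MCUb against the MCU knockout under each setting (y axis), with the 0.05 threshold dotted. Ciart lies left of the line everywhere but on the 6 arrays with low Uty and Kdm5d, while Per2 and Cry2 fall on both sides of it and reach 0.976 on those 6 arrays.

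The activating arm of the loop and its receptors were read from a list of 9 genes, of which 8 were measured and 6 were above background on some array. None passed for the MCU knockout against control, 1 was lower for the MCUb knockout against control, and none passed between the knockouts. Past the same threshold, in either direction, were 0.140%, 0.0225% and 0.158% of all probe sets in that order of comparisons. These shares apply to the lists below too. At an unadjusted p under 0.05 there were 1 higher and 1 lower, 0 and 3, and 0 and 3 in the same order of comparisons. Over all probe sets the shares were 4.76% and 5.35%, 3.90% and 4.21%, and 3.02% and 2.68%. Arntl2, the 1 higher in the MCU knockout against control, was above background on 2 arrays only. Npas2, among the 3 lower in the MCUb knockout against control, was not above background on any array. The one that passed was Nr1d1, which encodes REV-ERB alpha, a repressor of Arntl. Its mean was 13.73 in control, 12.99 in the MCU knockout and 11.71 in the MCUb knockout, a log2 change of -2.02 (SE 0.27, limma adjusted p = 0.0462) in the MCUb knockout. That comparison had 5 probe sets past the threshold, and from 0 to 20 over the other settings. Whether Nr1d1 passed in those settings was not tested. All its MCUb knockout arrays (12.17, 11.43 and 11.53) were below all its MCU knockout arrays (13.18, 12.68 and 13.11), at -1.28 (limma adjusted p = 0.166). Its order of means differed from that of Ciart, Per2 and Cry2, which were highest in the MCUb knockout. Arntl, encoding BMAL1, had 7.49, 7.57 and 8.09 in the MCUb knockout against 9.09, 9.36 and 8.53 in control, at -1.28 (SE 0.40, limma adjusted p = 0.534). Its MCU knockout arrays, at 7.77, 9.15 and 9.52, overlapped both other groups. Clock was at -0.33 (SE 0.17, limma adjusted p = 0.629) in the same comparison.

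The clock's PAR bZIP output factors act on D-boxes, and Nfil3 opposes them there. All 4 genes of that list were measured and 0 passed in any comparison (limma). At an unadjusted p under 0.05, 1 was lower in the MCU knockout against control (5.35% of all probe sets). Against control 1 was higher in the MCUb knockout (3.90%), and 3 were higher in the MCUb than in the MCU knockout (3.02%). Dbp was 14.52, 14.90 and 14.84 in control, 13.93, 14.09 and 13.64 in the MCU knockout, and 14.84, 15.10 and 14.71 in the MCUb knockout. Its difference between the knockouts was 0.996 (SE 0.20, limma adjusted p = 0.132), and against control the change was -0.87 (limma adjusted p = 0.208) in the MCU knockout and 0.13 in the MCUb knockout. Tef was 0.78 higher (limma adjusted p = 0.668) and Hlf 0.79 (limma adjusted p = 0.717) in the MCUb than in the MCU knockout. Among 19 modifiers of PER and CRY proteins, kinases, phosphatases, ubiquitin ligases and deubiquitinases, 17 were measured and 0 passed (limma). At an unadjusted p under 0.05 there were 1 higher and 2 lower, 2 and 0, and 1 and 0 in the same order of comparisons. Fbxl21, counted as higher in each knockout against control, was not above background on any array. The smallest p between the knockouts was that of Usp2, a deubiquitinase with a rhythmic transcript, at 0.69 (SE 0.18, limma adjusted p = 0.423). Of 12 partners of the PER and CRY complex 10 were measured and 0 passed (limma). At an unadjusted p under 0.05 there were 0 higher and 1 lower, 0 and 1, and 1 and 0. The 1 lower in each knockout against control was Timeless, which was not above background on any array. The 1 higher between the knockouts was Sirt1, a deacetylase, at 0.55 (limma adjusted p = 0.718). For both lists, the shares over all probe sets were 4.76% and 5.35%, 3.90% and 4.21%, and 3.02% and 2.68%.

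**Figure D5:**
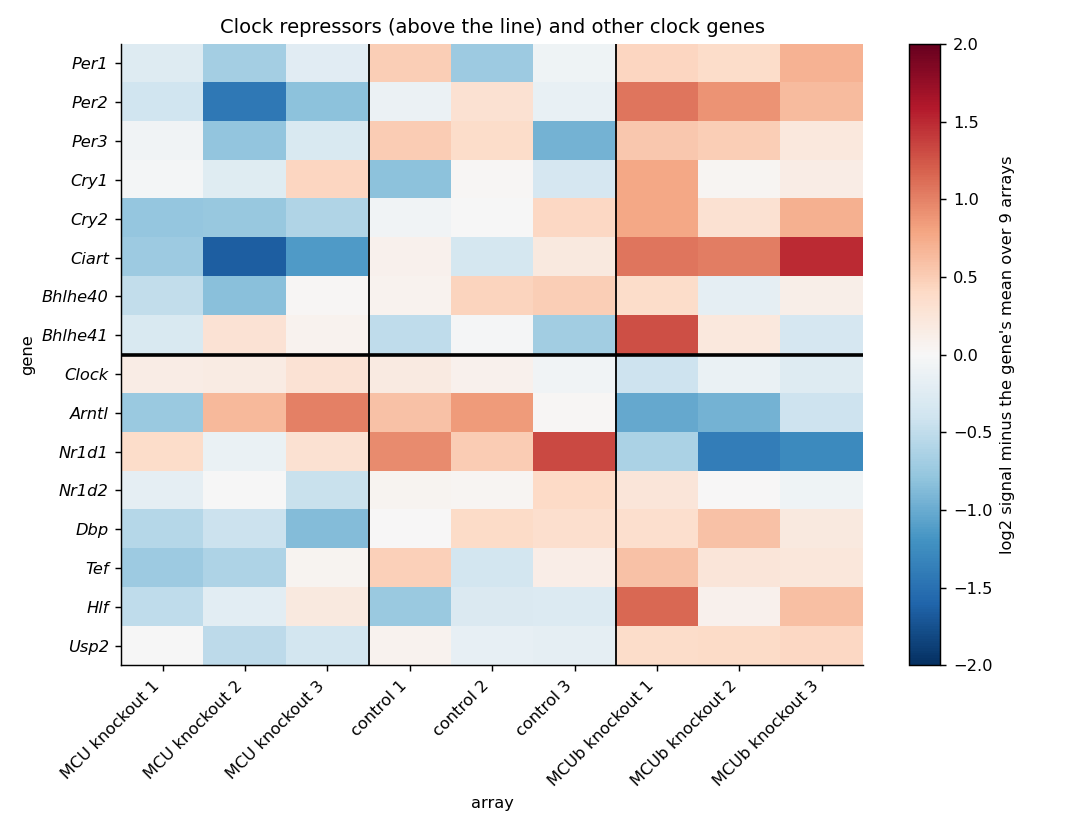
Log2 signal minus the gene's own mean over the 9 arrays (colour, scale from -2 to 2) for the 8 clock repressors (above the line) and other clock genes (below it), arrays on the x axis. Ciart and Per2 are lowest in the MCU knockout and highest in the MCUb knockout, while Nr1d1 is lowest in the MCUb knockout and Arntl is low there and on MCU knockout array 1 (7.77).

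The genes whose levels followed Ciart most closely over the 9 arrays, among 7817 named genes above background on all arrays, were Usp2 (Pearson r = 0.936), Tinagl1 (0.930) and Osbpl9 (0.928), with Cry2 at place 4 (0.926). Per2 and Ciart, above background on 8 arrays each, were not in that set, so neither was ranked for the other. The closest to Per2 were Cs, the citrate synthase gene (0.951), Ppm1k (0.948) and Clk4 (0.946). A correlation does not give the size of a change. Between the knockouts Per2 differed by 1.75 and Cs by 0.27 (limma adjusted p = 0.969). Ppm1k differed by 1.26 (limma adjusted p = 0.0489) and Clk4 by 0.59 (limma adjusted p = 0.595). The closest to Cry2 were Pcbp1 (0.951), Tinagl1 (0.935) and Tesk1 (0.921). For the other members the closest were Ptprd for Per1, Tbc1d9b for Per3, Mtus1 for Cry1, Plekhb1 for Bhlhe40 and Trim24 for Bhlhe41. These correlations describe 9 arrays that fall into 3 genotypes and share the same 3 groups, and no test was attached to them.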

How the data were processed

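Per the labels' protocols, total RNA was extracted from muscle with Trizol and labelled with a 3' IVT Pico kit for Clariom S arrays. The deposited log2 values, 1 per probe set and array, came from Affymetrix Expression Console, as the submitters' processing notes say. Version, summarisation, normalization and log base are not given in the sources used here; the values, from 2.33 to 19.93, were read as log2, and every fold rests on that reading. Of 28846 features, 6640 controls were left out and 22206 probe sets were tested. The platform annotation gave 19572 of them a symbol, all matched to RefSeq by gene identifier. A value counted as above background over the 95th percentile of 23 background sets of its array (5.87 to 5.92). limma 3.58.1 in R 4.3.3 fitted 3 group means over all 9 arrays (lmFit, eBayes, two-sided, 6 residual and 5.06 prior degrees of freedom), with Benjamini-Hochberg adjustment over all probe sets and a threshold of 0.05. With 3 arrays a group the number of arrays limits the precision. Alternatives were a dim filter, other normalizations, priors and weights, fewer groups, a replicate block, a Uty and Kdm5d covariate and each array left out. Another was the mean of all probe sets of a gene, which leaves the values of the 8 members unaltered, as each has 1 probe set. The script was tested on simulated data. The members and lists were chosen with earlier results of these data known. Named are the 8 members, Mcu, Uty and Kdm5d, up to 3 genes per list and comparison with the smallest p, and the 3 genes most correlated with each member. Gene coordinates are RefSeq's; those of the arrays' design are not given in the sources used here.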

Additional observations from a re-analysis of the deposited data

Results flagged for a closer look

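For 3 genes the levels of the knockouts differed past the adjusted threshold when compared with each other directly. Ciart was 2.37 log2 units higher in the MCUb than in the MCU knockout, Per2 1.75 and Cry2 1.30, with every MCUb knockout array above every MCU knockout array. Of all probe sets, 35 (0.158%) passed in either direction, and 6.19% had groups without overlap in this direction. The genes were chosen with earlier results of these arrays known, so this is a description only. Of 19 other settings, Ciart passed in 18, Per2 in 9 and Cry2 in 6.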

How the results depend on the processing

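Of 456 member changes recomputed under 19 settings, 4 reversed, and the cause was not tested. The dim filter, the intensity trend and robust prior, the fit with fewer groups, the gene mean and the replicate block leave every log2 change unaltered. So does leaving out an array of the group not compared. Only part of the 456 could therefore reverse. Only Ciart, Per2 and Cry2 between the knockouts had passed as reported and could lose the threshold. They lost it 24 times: Ciart in 1 of the 19 settings, Per2 in 10 and Cry2 in 13. Bhlhe41 turned to -0.11 in the MCU knockout against control with the level of Uty and Kdm5d as a covariate. With 1 array left out, Per1 in the MCU knockout against control ran from -0.59 to 0.014 (without control replicate 1), Per3 in the MCUb knockout against control from -0.024 (without control replicate 3) to 0.70, and Bhlhe41 between the knockouts from -0.082 (without MCUb knockout replicate 1) to 0.73. Same-numbered arrays did not deviate together (correlations from -0.12 to 0.09), and with a replicate block 1 of the 8 genes passed between the knockouts, Ciart; 1 passed with the covariate and 0 on the 6 arrays with low Uty and Kdm5d, a setting chosen after seeing the data. On those 6 arrays the medians of the 8 were -0.28, 0.43 and 0.63. Leaving out 1 array gave medians from -0.68 to -0.37, 0.43 to 0.76 and 0.67 to 0.96, and 1 to 3 genes past the threshold between the knockouts. Per2 was lost without control replicate 1, MCU knockout replicates 2 and 3 or any MCUb knockout replicate, and Cry2 without any array but control replicate 3. Probe sets past the threshold ranged over the settings from 0 to 98 in the MCU and 0 to 20 in the MCUb comparison with control, and 3 to 61 between the knockouts.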

Other observations

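Genes that answer to glucocorticoids and immediate early signals were read because Per1 is among the targets of both. Of 11 glucocorticoid-responsive genes, all measured and 10 above background on some array, 0 passed in any comparison (limma). At an unadjusted p under 0.05, 3 were higher and 0 lower in the MCU knockout against control (4.76% and 5.35% of all probe sets). There were 2 and 1 in the MCUb knockout against control (3.90% and 4.21%), and 1 and 1 in the MCUb against the MCU knockout (3.02% and 2.68%). The 1 higher between the knockouts was Per1 itself, which is on this list. It is also among the clock repressors, so that count is not a separate observation. Tsc22d3, encoding the glucocorticoid-induced leucine zipper, had 11.62, 11.74 and 12.05 in control, 12.17, 12.65 and 12.68 in the MCU knockout and 12.76, 12.58 and 12.87 in the MCUb knockout. It was above control in both knockouts without overlap, by 0.70 (adjusted p = 0.333) and 0.94 (adjusted p = 0.411). Errfi1, a feedback inhibitor of the EGF receptor, had 12.46, 12.30 and 12.75 in the MCU knockout against 10.78, 11.67 and 11.45 in the MCUb knockout, a log2 difference of -1.20 (limma adjusted p = 0.222) in the opposite direction to Ciart. Of 16 immediate early genes 15 were measured, 11 were above background on some array and 0 passed (limma). Fos, Fosb, Nr4a2 and Ier2 were not above background on any array. There were 1 higher and 0 lower, 1 and 1, and 0 and 1 at an unadjusted p under 0.05 in the same order. The shares over all probe sets are those given above for the glucocorticoid-responsive genes. Sik1, a kinase induced by cyclic AMP, was lower in the MCUb than in the MCU knockout, at -1.09 (limma adjusted p = 0.223).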
